A study of Mus musculus with 6 samples.

Results

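Postn, Sparc, Tnc, Thbs1, Thbs2, Fn1, Eln, Fbn2, Fbln1 and Fbln5 encode matrix proteins other than collagens, here called matricellular and elastic fibre genes. They were taken by name, and all 10 were measured among 19938 tested genes. Messenger RNA was read on 6 Affymetrix arrays of bone marrow stromal cells (BMSCs), the plastic-adherent fraction of marrow from which osteoblasts and fat cells can arise. Donor mice were wild type (WT, 3 arrays) or carried a knockout of the microRNA miR-188 (KO188, 3 arrays), and all were C57BL/6 and 6 months old. Both groups were kept in the same osteogenic medium, with 10% fetal calf serum, 0.05 mM ascorbate-2-phosphate, 10 mM beta-glycerophosphate and 100 nM dexamethasone. The labels do not say which part of the miR-188 locus was deleted, or whether the loss was restricted to a cell type. The arrays of a group are labelled biological replicates, with no statement that they stem from separate mice or cultures, so p-values measure only the spread between these samples. Batches and culture days are not labelled, so genotype and a culture difference shared by the KO188 samples cannot be told apart.

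Matricellular proteins sit in the extracellular matrix but mainly signal: they bind collagens, growth factors and cell-surface integrins and tune adhesion, proteolysis and TGF-beta activity. Elastic fibres have a core of cross-linked elastin on a scaffold of fibrillin microfibrils, and fibulins help to place elastin on that scaffold before lysyl oxidases cross-link it. Osteoblasts lay down a matrix rich in SPARC (osteonectin), periostin and fibronectin together with type I collagen, and elastin is best known from arteries, lung and skin.

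The microRNA that was removed is shown first, because its loss defines the groups. Both mature strands of mouse miR-188 are given from RefSeq (GRCm38.p6, X chromosome, minus strand), with the seed, bases 2 to 8, in capitals. The seeds of both strands differ. No transcript sequence was searched for matches to them. The array's probe set for Mir188, whose place in the locus is not stated, read 7.15, 7.13 and 7.16 in WT and 7.03, 7.13 and 7.09 in KO188. The groups overlapped and the change of -0.06 did not pass limma's test (adjusted p = 0.24; 0.040 with arrays centred on their medians), so this value does not check the labels.
miR-188-5p: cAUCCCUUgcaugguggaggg
miR-188-3p: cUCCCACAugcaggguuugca

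Promoter windows from RefSeq (GRCm38.p6) are shown for the 3 genes with the largest rises, Postn, Thbs2 and Fbln5, and for the 2 that fell, Tnc and Fbln1, so that the start regions of genes that moved in opposite directions can be read side by side. A window runs from 250 bases before an annotated start to 50 after it. The table held windows for 6 of the 10 genes. Each is printed 5′ to 3′ on the strand of its gene; Postn (chr3:54360857-54361156) and Fbln1 (chr15:85205758-85206057) lie on the plus strand, and Thbs2 (chr17:14694213-14694512), Fbln5 (chr12:101819070-101819369) and Tnc (chr4:64046887-64047186) on the minus strand. Where a gene has 2 annotated starts, the window with more matches is shown, and on a tie the one nearer the gene's end. Capitals mark matches on either strand to 4 motifs, and none of the matches overlap. The motif TATAAA positions the start of transcription in many genes. The motif GGGCGG is bound by Sp1 and its relatives. The motif CCAAT is bound by the factor NF-Y. The motif TGANTCA is bound by AP-1 factors.
Postn: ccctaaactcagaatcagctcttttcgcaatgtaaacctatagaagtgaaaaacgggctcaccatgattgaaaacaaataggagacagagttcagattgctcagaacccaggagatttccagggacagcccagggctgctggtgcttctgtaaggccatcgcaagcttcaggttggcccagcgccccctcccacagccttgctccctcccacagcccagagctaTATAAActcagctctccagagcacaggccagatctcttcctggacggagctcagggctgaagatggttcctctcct
Thbs2: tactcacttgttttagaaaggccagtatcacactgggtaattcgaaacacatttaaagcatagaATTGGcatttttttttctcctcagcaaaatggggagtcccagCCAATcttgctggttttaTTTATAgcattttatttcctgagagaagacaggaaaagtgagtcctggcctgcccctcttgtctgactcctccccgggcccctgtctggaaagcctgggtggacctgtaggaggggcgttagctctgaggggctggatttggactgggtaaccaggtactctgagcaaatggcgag
Fbln5: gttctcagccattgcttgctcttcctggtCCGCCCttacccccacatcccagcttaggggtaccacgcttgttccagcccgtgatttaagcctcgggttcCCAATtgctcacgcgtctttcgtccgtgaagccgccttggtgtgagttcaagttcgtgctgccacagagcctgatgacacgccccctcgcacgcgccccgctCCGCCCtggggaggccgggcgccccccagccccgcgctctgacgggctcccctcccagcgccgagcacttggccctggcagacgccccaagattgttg
Tnc: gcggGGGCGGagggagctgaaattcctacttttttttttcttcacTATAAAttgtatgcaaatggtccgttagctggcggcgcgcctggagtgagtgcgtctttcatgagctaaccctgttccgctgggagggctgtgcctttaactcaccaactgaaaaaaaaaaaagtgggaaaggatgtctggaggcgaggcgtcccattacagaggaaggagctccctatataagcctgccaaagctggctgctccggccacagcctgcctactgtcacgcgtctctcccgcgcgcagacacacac
Fbln1: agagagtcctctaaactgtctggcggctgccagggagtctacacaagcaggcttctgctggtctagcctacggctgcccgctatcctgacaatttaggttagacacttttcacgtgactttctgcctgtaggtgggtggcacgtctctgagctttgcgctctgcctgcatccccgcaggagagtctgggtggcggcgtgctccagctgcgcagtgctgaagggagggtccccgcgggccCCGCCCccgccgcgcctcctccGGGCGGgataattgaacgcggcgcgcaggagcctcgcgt

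TATAAA was found in windows of Postn, Thbs2 and Tnc, and in 13.6% of all 32851 windows in the table. In Postn its first base lay 26 bases upstream of the start. In Tnc it lay 205 bases upstream, and in Thbs2 the match was on the opposite strand, 126 bases upstream. Only exact matches were searched: the Tnc window also holds the letters TATATAA nearer its start, which are not marked. GGGCGG was found in Fbln1, Fbln5 and Tnc (35.7% of all windows) and CCAAT in Thbs2, Fbln5 and the other annotated start of Postn (37.4%). TGANTCA was in no window of the 6 genes (7.81% of all windows). TATAAA thus occurred in Postn and Thbs2, which rose, and in Tnc, which fell, and GGGCGG in Fbln5, which rose, and in Fbln1 and Tnc, which fell. A match is a description of the letters and does not show that a factor binds there.

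Of the 10 genes, 4 rose and 2 fell in KO188, and 4 did not pass. Postn, Fbln5 and Thbs2 were the 3 with the largest rises, of 1.31-fold to 1.38-fold, Thbs1 rose 1.10-fold, and Tnc and Fbln1 fell. The test was limma, which estimates each gene's spread with help from all other genes, at a Benjamini-Hochberg adjusted p of 0.05 over all tested genes. By this test 29.8% of all tested genes were called, 13.3% higher and 16.5% lower. The median change of the 10 genes was -0.01 on the log2 scale and that of all tested genes -0.01. The median size of the change, without its sign, was 0.20 for the 10 genes and 0.08 for all tested genes. The KO188 and WT arrays did not overlap for 8 of the 10 genes, against 41.5% of all tested genes. Levels below are log2 probe set values, in which a step of 1 doubles the signal, and each gene had 1 probe set. A level belongs to its own probes, so levels of different genes are not ranked. In bulk RNA, fewer cells of a type and less RNA per cell cannot be told apart.

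**Figure D1:**
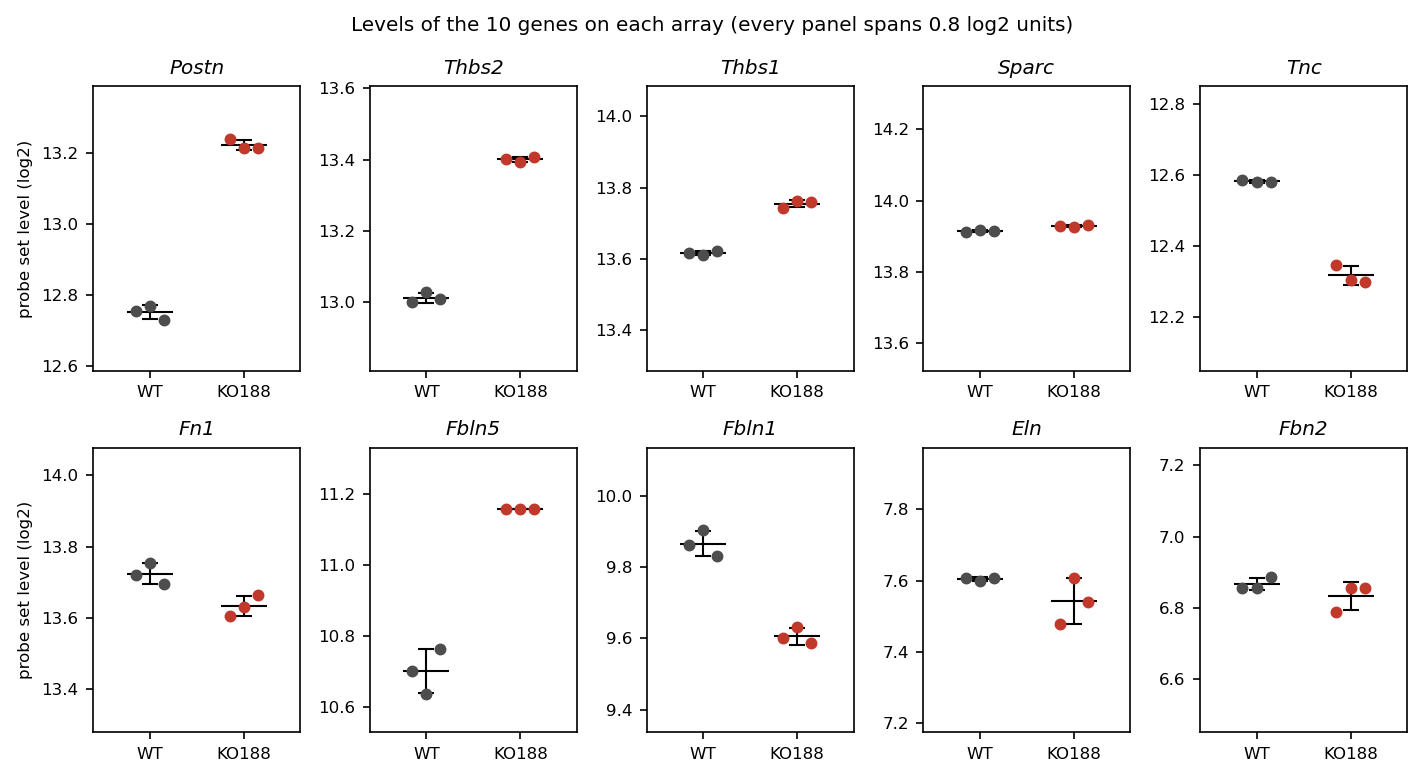
Probe set level (log2) of each of the 10 genes on the 3 WT (grey) and 3 KO188 (red) arrays; horizontal marks are means, error bars SD, and every panel spans 0.8 log2 units. Postn, Thbs2, Thbs1 and Fbln5 are higher on all KO188 arrays, Tnc and Fbln1 lower, and the Eln and Fbn2 groups overlap.

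Periostin, the product of Postn, is a secreted protein of periosteum and other collagen-rich tissues that binds integrins and collagen. Postn levels were 12.76, 12.77 and 12.73 on the WT arrays and 13.24, 13.21 and 13.21 on the KO188 arrays. The lowest KO188 array exceeded the highest WT array by 0.44. The log2 change was 0.47 (SE 0.025, 95% interval 0.41 to 0.53, limma adjusted p = 3.3e-05), a 1.38-fold rise. Among all tested genes 4.67% changed by at least this much in either direction.

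Thrombospondins are large secreted glycoproteins that bind matrix, proteases and cell-surface receptors. Thrombospondin-2, from Thbs2, restrains blood vessel growth and lowers the amount of matrix metalloproteinase outside cells. Thbs2 levels were 13.00, 13.03 and 13.01 in WT and 13.40, 13.39 and 13.41 in KO188, again with no overlap. Its log2 change was 0.39 (SE 0.024, 95% interval 0.33 to 0.45, limma adjusted p = 6.0e-05), a 1.31-fold rise. Thrombospondin-1, from Thbs1, can activate latent TGF-beta. Thbs1 levels were 13.62, 13.61 and 13.62 in WT and 13.74, 13.76 and 13.76 in KO188. The groups did not overlap, and the log2 change was 0.14 (SE 0.023, 95% interval 0.08 to 0.19, limma adjusted p = 0.0047), a 1.10-fold rise. Changes of at least this size were common, in 29.8% of all tested genes.

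SPARC, a collagen-binding glycoprotein also called osteonectin, is an abundant non-collagen protein of bone. Sparc levels were 13.91, 13.92 and 13.92 in WT and 13.93 on each KO188 array. The KO188 arrays lay above the WT arrays by a gap of only 0.0092, and the log2 change of 0.01 (95% interval -0.04 to 0.07, limma adjusted p = 0.69) did not pass. With each array centred on its median the sign turned, to -0.029 (95% interval -0.10 to 0.04). The brightest value on any array was 14.47. Whether the scale limits changes at such high levels was not tested, for Sparc or for Thbs1 and Fn1.

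Tenascin-C, from Tnc, is a multi-armed adhesion-modulating protein made in developing and remodelling tissue, osteoblast matrix among it. Tnc levels were 12.59, 12.58 and 12.58 in WT and 12.35, 12.31 and 12.30 in KO188. Every KO188 array lay below every WT array. Tnc fell by 0.26 on the log2 scale (SE 0.026, 95% interval -0.33 to -0.20, limma adjusted p = 4.4e-04), so that WT was 1.20-fold above KO188. Among all tested genes 12.8% changed by at least as much.

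Fibronectin, from Fn1, forms the first fibrils on which collagen, fibrillin and several matricellular proteins assemble. Fn1 levels were 13.72, 13.76 and 13.70 in WT and 13.61, 13.63 and 13.66 in KO188. The groups did not overlap, but the gap of 0.03 was close to the SD within a group (0.03 in each). The log2 change of -0.09 (SE 0.030, 95% interval -0.16 to -0.02) did not pass (limma adjusted p = 0.063). Whether Fn1 passed depended on the processing: the adjusted p was 0.018 with arrays centred on their medians, 0.019 with dim genes left out and 0.0054 with eBayes set to trend and robust, and its range over 13 alternatives was 0.0054 to 0.16.

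The elastic fibre genes did not move as 1 group. Fibulin-5, from Fbln5, binds elastin, lysyl oxidase-like enzymes and integrins, and mice without it have disorganised elastic fibres. Fbln5 levels were 10.70, 10.64 and 10.76 in WT and 11.16 on each KO188 array. The groups did not overlap, with a gap of 0.39. The log2 change was 0.46 (SE 0.036, 95% interval 0.37 to 0.54, limma adjusted p = 1.9e-04), a 1.37-fold rise.

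Fibulin-1, from Fbln1, is a calcium-binding glycoprotein found with fibronectin, elastic fibres and basement membranes. Fbln1 levels were 9.86, 9.90 and 9.83 in WT and 9.60, 9.63 and 9.59 in KO188, with no overlap. It fell by 0.26 (SE 0.030, 95% interval -0.33 to -0.19, limma adjusted p = 9.2e-04), so that WT was 1.20-fold above KO188. The 2 fibulin genes thus changed in opposite directions.

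Elastin, from Eln, is the rubber-like core protein of the fibre. Eln levels were 7.61, 7.60 and 7.61 in WT and 7.48, 7.61 and 7.54 in KO188, and the groups overlapped. The log2 change of -0.06 (95% interval -0.15 to 0.03, limma adjusted p = 0.28) did not pass. It did pass with arrays centred on their medians (-0.11, adjusted p = 0.047) and with quantile normalization (-0.11, adjusted p = 0.029); its adjusted p over 12 alternatives ran from 0.029 to 0.50.

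Fibrillin-2, from Fbn2, builds microfibrils mostly in fetal and growing tissue and takes part in bone formation. Fbn2 levels were 6.86, 6.86 and 6.89 in WT and 6.79, 6.86 and 6.86 in KO188, and the groups overlapped. The log2 change was -0.03 (95% interval -0.10 to 0.04, limma adjusted p = 0.48). These levels lay just above 6.72, the 95th percentile of 1194 genes of olfactory or vomeronasal receptors, taken as a rough guide to genes that are not expressed. RMA values of dim probe sets are compressed, so a change in Fbn2 could be understated.

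**Figure D2:**
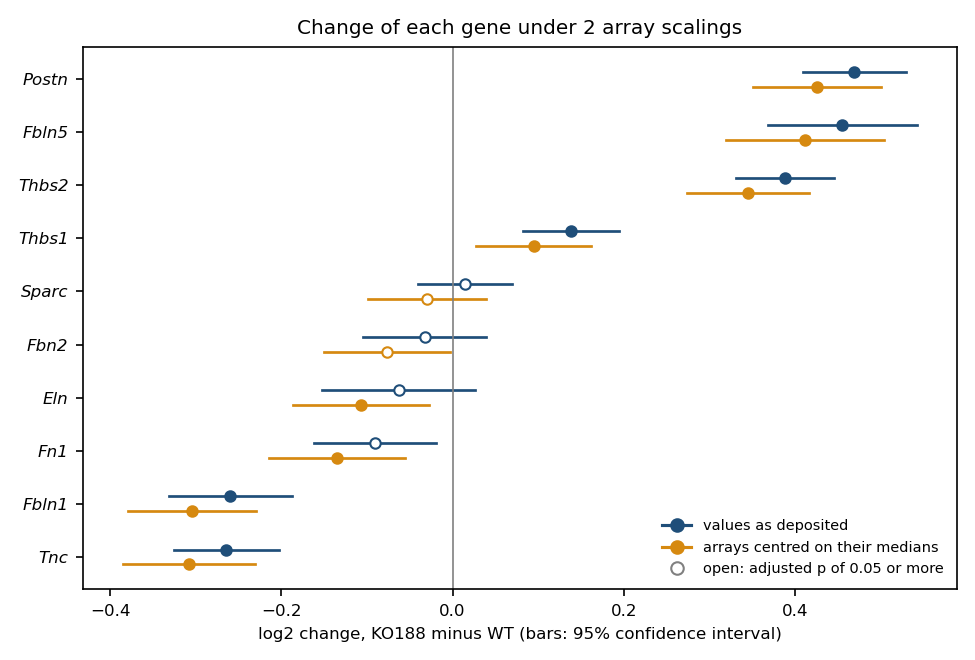
Log2 change (KO188 minus WT) of each gene with its 95% confidence interval, from the deposited values (blue) and with each array centred on its median (orange); filled points have a limma adjusted p under 0.05. Postn, Fbln5, Thbs2 and Thbs1 lie above 0 and Fbln1 and Tnc below 0 under both scalings, while Eln and Fn1 are filled only after centring and Sparc changes side.

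The array medians were on average 0.04 higher in KO188 than in WT, so centring moved every change down by that amount. With centring, 4 of the 10 genes rose and 4 fell, beside 10.1% of all tested genes higher and 22.6% lower. The 6 genes that passed on the deposited values passed in the same direction under each of the 13 alternatives. Several alternatives could not alter the log2 change: other uses of probe sets (each gene had 1), the dim filter, trend and robust, and the replicate block. Deposited values of the 10 genes repeat in places: Fbln5 had 1 value on all 3 KO188 arrays, and Postn, Eln and Fbn2 had values repeated on 2 arrays of a group. For Eln and Fbn2 the repeats crossed the groups. Eln was 7.60857 on WT replicates 1 and 3 and on KO188 replicate 2. Fbn2 was 6.85663 on WT replicates 1 and 2 and on KO188 replicates 2 and 3. The overlap of the groups for these genes thus rests on repeated values. Exact repeats within a group occurred in 26.5% of all tested genes, and a value identical on all 3 arrays of a group in 4.02%. The SD of 0 for Fbln5 in KO188 is therefore not a measure of how alike the cultures were. That 0 also enters the SE, interval and adjusted p given for Fbln5. An exact permutation test, which uses the values of 1 gene alone, gave a two-sided p of 0.10 for each of the 8 genes whose groups did not overlap, the smallest that 3 against 3 arrays can give; it was 0.40 for Eln and 0.60 for Fbn2.

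Relative shifts inside a gene pair do not depend on how an array is scaled by a constant, and 4 pairs were compared within each array. Fbln5 minus Fbln1 was 0.84, 0.73 and 0.93 in WT and 1.56, 1.53 and 1.57 in KO188, so the balance of these fibulins shifted by 0.71, or 1.64-fold, towards Fbln5. Postn minus Tnc was 0.17, 0.19 and 0.15 in WT and 0.89, 0.91 and 0.91 in KO188, a shift of 0.73 towards Postn. Both shifts were wider than the spread of either group. Fbln5 and Postn rose and Fbln1 and Tnc fell without overlap, so these differences had to separate and add no further support. Fbln5 had the same value on every KO188 array, so the KO188 spread of Fbln5 minus Fbln1 is that of Fbln1 alone.

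Thbs2 minus Thbs1 was -0.62, -0.58 and -0.61 in WT and -0.34, -0.37 and -0.35 in KO188, a shift of 0.25 towards Thbs2. Each of these 3 differences had a two-sided exact permutation p of 0.10, or 0.13 after adjustment over 4 pairs, and 0.10 is the smallest this design allows. For Fbln5 minus Fbln1 and Postn minus Tnc this p was fixed by the changes of the single genes. Eln minus Fbn2 overlapped between the groups (0.74 ± 0.02 in WT and 0.71 ± 0.04 in KO188, SD, n = 3; exact permutation p = 0.40, adjusted over 4 pairs 0.40). Eln and Fbn2 each had the same value on WT replicate 1 and KO188 replicate 2, so their difference was 0.75194 on both arrays. The overlap for this pair therefore rests on repeated values. The sizes within a group carry no meaning, since the paired genes are read by different probes.

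**Figure D3:**
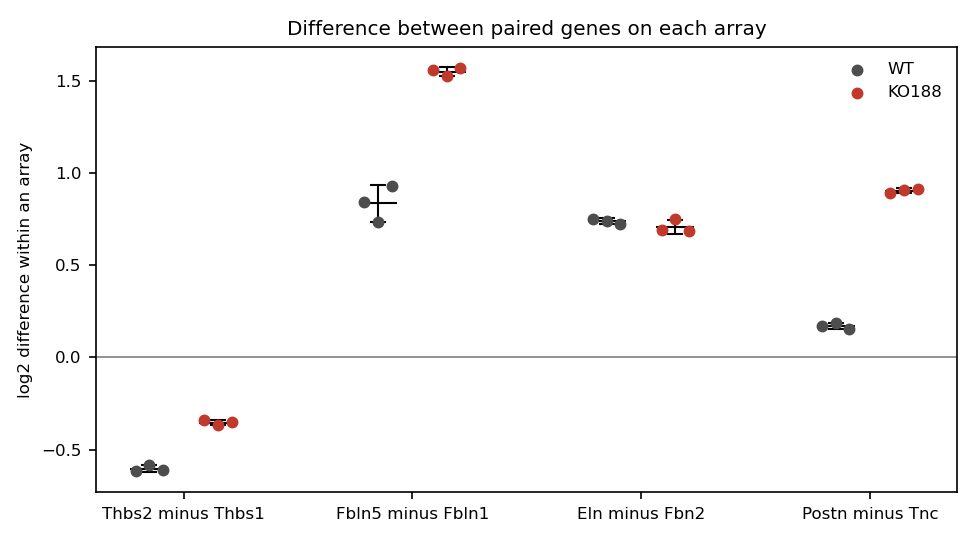
Log2 difference between paired genes on each of the 3 WT (grey) and 3 KO188 (red) arrays, with means and SD. The Thbs2 minus Thbs1, Fbln5 minus Fbln1 and Postn minus Tnc differences are higher on all KO188 arrays than on all WT arrays, and the Eln minus Fbn2 differences overlap.

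Relatives of the 10 genes were read beside them, by families set out after the values were known. Of the 5 fibulin genes grouped here, Fbln5 alone rose, and 3 fell, beside 13.3% higher and 16.5% lower of all tested genes. Hmcn1 (hemicentin-1, also called fibulin-6) was tested but not put in this group, and did not pass (0.03, limma adjusted p = 0.72). Fbln2, whose product binds fibronectin, fibrillin and tropoelastin, fell by 0.59 (SE 0.031, limma adjusted p = 2.9e-05). Efemp1, the fibulin-3 gene, fell by 0.21 at a level under the receptor guide (6.35 in WT), a call lost without any 1 array except WT replicate 2 (adjusted p = 0.063 to 0.11 over those 5). Fbln7 (0.15, adjusted p = 0.090) did not pass.

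Among the tenascins, Tnn (tenascin-W, made in periosteum and bone) rose by 0.80 (SE 0.050, limma adjusted p = 6.5e-05) while Tnc fell; Tnxb (-0.09) and Tnr did not pass. Of 5 thrombospondin genes Thbs1 and Thbs2 rose, beside 13.3% higher and 16.5% lower of all tested genes. Thbs3 (-0.01), Thbs4 (-0.08) and Comp did not pass. Thbs4 lay under the receptor guide and passed without KO188 replicate 2 (-0.15, adjusted p = 0.042). Tgfbi, which carries fasciclin domains like periostin, fell by 0.21 (adjusted p = 0.0018) where Postn rose. Of 7 relatives of Sparc, 1 rose, beside 13.3% of all tested genes. That was Smoc2, a secreted calcium-binding protein gene, which rose by 0.89 (SE 0.033, limma adjusted p = 7.0e-06). Sparcl1 (0.04) did not pass. The latent TGF-beta binding proteins share the domain plan of fibrillins: Ltbp2 rose by 0.16 (adjusted p = 0.0072), Ltbp3 fell by 0.27 (adjusted p = 0.0019) and Ltbp4 fell by 0.29 (adjusted p = 0.0030), while Fbn2 and Ltbp1 did not pass.

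**Figure D4:**
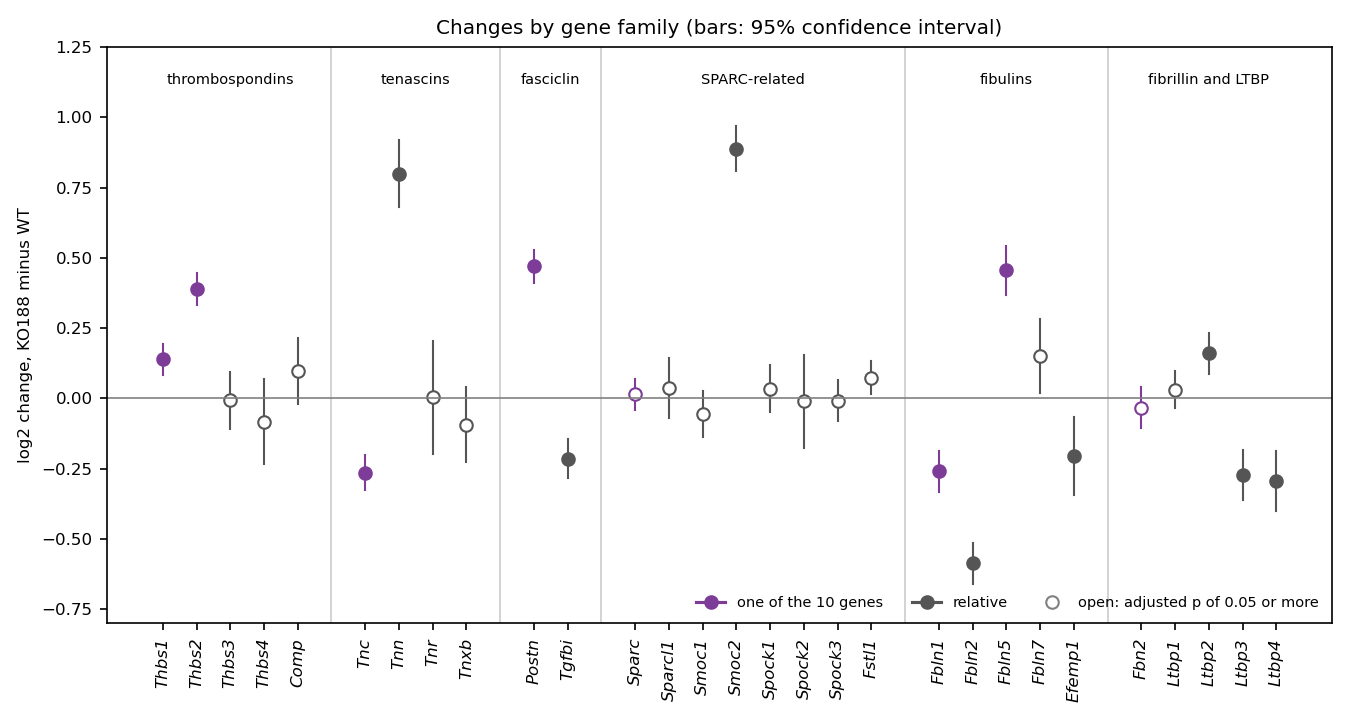
Log2 change (KO188 minus WT) with 95% confidence interval for the genes (purple) and their relatives (grey), grouped by family; filled points have a limma adjusted p under 0.05. Filled points lie on both sides of 0 among the tenascins, the fasciclin genes, the fibulins and the fibrillin and LTBP genes.

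The wider machinery of elastic fibres was also mixed. Of 22 tested genes of elastic fibres and microfibrils, 8 fell, 5 rose and 9 did not pass (median change -0.01), beside 16.5% lower and 13.3% higher of all tested genes. The count of falls was 5 without WT replicate 1, WT replicate 3 or KO188 replicate 2. Fbn1, Efemp2 and Loxl2 were not analysed here, since no probe set is named for them alone. Among the lysyl oxidase-like enzymes, which cross-link elastin and collagen, Loxl3 rose by 0.59 (limma adjusted p = 4.0e-05), Loxl4 fell by 0.49 (adjusted p = 5.5e-05) and Loxl1, the partner of fibulin-5, fell by 0.22 (adjusted p = 7.2e-04). Adamtsl4, whose product binds fibrillin-1 microfibrils, rose by 0.47 (adjusted p = 3.0e-05).

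Of 20 other matricellular genes tested, 6 rose, 2 fell and 12 did not pass (median change 0.02), beside 13.3% higher and 16.5% lower of all tested genes. Ccn3 (3.99-fold, limma adjusted p = 7.9e-08) and Ccn5 (3.53-fold, adjusted p = 2.9e-07), of the CCN family of matrix signalling proteins, rose, and Ccn4 fell by 0.51 (adjusted p = 4.1e-05). Spp1 was not analysed here.

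Of 15 genes of receptors that the proteins bind, 5 fell and 3 rose, with a median of -0.08, beside 16.5% and 13.3% of all tested genes. Itgav, the alpha-v integrin subunit that takes part in binding periostin, fibronectin and fibulin-5, fell by 0.54 (limma adjusted p = 2.3e-05), and Itgb1, the shared beta-1 subunit, fell by 0.27 (adjusted p = 5.4e-04). Itgb6 fell by 0.53 and Itgb8 rose by 0.34. Cd47, a thrombospondin-1 receptor gene, rose by 0.27 (adjusted p = 3.8e-04). With the replicate number as a block, 3 of the 15 fell, and with arrays centred on their medians 7 fell.

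Of 16 regulators of TGF-beta and of actin-linked transcription, which control many matrix genes, 6 rose and 4 fell, with a median of 0.00, beside 13.3% and 16.5% of all tested genes. With arrays centred on their medians 4 rose and 6 fell. The rises were also 4 without any 1 WT array, without KO188 replicate 2 or KO188 replicate 3, and with the replicate number as a block. The 3 ligand genes did not move together: Tgfb3 (0.62, limma adjusted p = 1.5e-05) and Tgfb2 (0.38, adjusted p = 5.4e-05) rose, and Tgfb1 fell by 0.41 (adjusted p = 4.5e-04). A rise was also seen for Tgfbr3 (0.79, adjusted p = 1.5e-05), which encodes the co-receptor betaglycan. Tgfbr1, the signalling receptor gene, fell by 0.46 (adjusted p = 1.8e-04), and Wwtr1, which encodes the coactivator TAZ, fell by 0.31 (adjusted p = 3.8e-04).

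Markers of the labelled cells and of others that make the same matrix were set beside these values. Every marker count here stands beside 13.3% higher and 16.5% lower of all tested genes. The stromal genes Col1a1 (12.90 in WT), Col1a2 (12.79) and Pdgfrb (12.34) lay well above the receptor guide of 6.72, and Thy1 (6.88) lay close to it. Of 10 stromal markers 6 rose, by 0.14 (Col1a2) to 0.87 (Pdgfra), and 1 fell (Nt5e, -0.85, limma adjusted p = 6.0e-05). Thy1, Eng and Lepr did not pass. Lepr lay under the guide (5.18 in WT). The 3 osteoblast markers Ibsp, Dmp1 and Phex lay under it in both groups, and of 6 tested osteoblast markers 3 rose (Alpl, Omd and Sp7) and 1 fell (Phex). Sp7 had a mean level under the guide in WT (6.41) and just above it in KO188 (6.77). The Sp7 call was lost without any 1 WT array or KO188 replicate 3 (adjusted p = 0.052 to 0.070), and that of Phex when KO188 replicate 1, KO188 replicate 3, WT replicate 1 or WT replicate 2 was left out (0.10 to 0.13). Of 7 smooth muscle markers, cells that also secrete elastin, fibulin-5 and tenascin-C, 3 fell (Cnn1 -0.73, Tagln -0.42, Smtn -0.21) and 1 rose (Lmod1, 0.40), and their summed log2 level was 69.1 to 69.3 in WT and 68.0 to 68.2 in KO188. Of 7 adipocyte markers 2 fell (Pparg -1.86, Fabp4 -0.33), 1 rose (Lpl, 0.54) and 4 did not pass, with a median change of -0.0061. Their summed levels were 52.8 to 52.9 in WT and 51.0 to 51.7 in KO188, a difference in which Pparg had the largest share, and Adipoq lay under the guide (5.37 in WT). Of 8 macrophage markers 1 rose, Mpeg1 (1.32), from 5.72 in WT, under the guide, to 7.04 in KO188, above it. By the mean over all 6 arrays, 6 of the 8 lay at or below the guide, with Mpeg1, Ptprc and Csf1r among them. Of 6 endothelial markers 1 rose, Kdr (0.24), at mean levels under the guide (6.40 in WT and 6.63 in KO188). Its call was lost without any 1 WT array or KO188 replicate 1 (adjusted p = 0.051 to 0.079) and with the replicate block (0.058). The part of these markers in the changes of the matrix genes was not tested.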

How the data were processed

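The authors deposited 1 log2 value per probe set (35556) and array. Per the submitters' processing notes, Affymetrix Expression Console, Partek and RMA were used, with no version, role or order; the array's genome build is not given there. RMA corrects background, equalises arrays and summarises probes on the log2 scale, so small changes depend on scaling and dim signals are compressed. Whether very bright signals are compressed was not tested. The number of arrays limits the precision. Array medians ran from 7.43 to 7.50; arrays correlated across genes at 0.9988 to 0.9993 within a group and 0.9909 to 0.9912 between groups.

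Groups came from the sample titles. Probe sets were named by GEO's platform annotation: 21789 have 1 symbol, 1621 several and 12146 are not listed. By Entrez identifier 21698 matched a RefSeq table (GRCm38.p6). The probe set with the highest mean was used per gene. KO188 minus WT was fitted by lmFit and eBayes of limma 3.58.1 (R 4.3.3), with Benjamini-Hochberg adjustment over 19938 genes and a threshold of 0.05. The fit was also run on simulated arrays with known shifts and independent normal noise. Those arrays lacked the exact repeats of the deposited values, so the run cannot show how the fit handles them. Figures used matplotlib 3.10.9 in Python 3.11.15. Named relatives are the 5 of each list with the lowest adjusted p and family relatives of the 10 genes; others were chosen after their values were seen, and so was the receptor guide. The 10 genes, lists and motifs were chosen with earlier results of these data known. Alternatives were array centring, quantile normalization, a filter on dim genes (50th percentile), other uses of probe sets, eBayes with trend and robust, each array left out, and a replicate block.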

Additional observations from a re-analysis of the deposited data

How the results depend on the processing

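The log2 changes of Postn, Thbs1, Thbs2, Fbln5, Tnc and Fbln1 kept their direction and passed limma's test under each of 13 alternatives. Not all alternatives could alter these changes. Each gene had 1 probe set, so the other uses of probe sets gave the same log2 change. That change also stays the same with the dim filter, trend and robust, and the replicate block, where only the test differs. For Fbln5, leaving out any KO188 array returned the same 0.46. Centring arrays on their medians turned Sparc to -0.029 (adjusted p = 0.48), took Fn1 (-0.13, adjusted p = 0.018) and Eln (-0.11, adjusted p = 0.047) past the threshold and made 4 of the 10 genes lower in place of 2. Fn1, at -0.091, also passed with dim genes left out (adjusted p = 0.019) and with trend and robust (0.0054), and Eln (-0.11) with quantile normalization (0.029). Eln and Fbn2 could not be given a value with dim genes left out. With the dim filter, fewer genes were adjusted for, and the spread was estimated from the brighter genes alone. Why any of these results changed was not tested. Leaving out 1 array gave 5 to 7 falls among the elastic fibre and microfibril genes in place of 8. Among the TGF-beta and actin-linked regulators, centring gave 4 rises and 6 falls in place of 6 and 4. Over all genes, centring gave 2007 higher and 4505 lower in place of 2643 and 3294. The replicate numbers did not pair the arrays: deviations of same-numbered arrays correlated at 0.018, 0.010 and -0.028. With the replicate block, 4 of the 10 genes were higher and 2 lower as before, 3 receptors fell in place of 5, and 2271 genes were higher and 2748 lower. Over the 13 alternatives the count of receptors that fell ran from 3 to 7, with 7 after centring.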
